A study of Rattus norvegicus with 35 samples.

Results

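Of 34 single rat cells, 3 held messenger RNA of Pou5f1, which encodes the pluripotency transcription factor Oct4. These cells, labelled C40, C72 and C74, were chosen by a Pou5f1 level of at least 5 CPM (reads of the gene per 1000000 reads in genes of that cell). They were set beside the 28 other cells in which at least 1500 transcript records had a read, called the comparison cells. The remaining 3 cells, C31, C88 and C94, fell under that minimum and were left out, as was the bulk population library.

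All 34 cells are converted hypoblast stem cells, made from rat embryonic stem cells by culture with LIF, PDGF, EGF and fetal bovine serum and collected on day 12 of differentiation. RNA was captured one cell to a chamber on the Fluidigm C1 system and made into Nextera XT libraries. No treatment or genotype separates the 3 cells from the others, and the labels name no line, culture or batch. The cells are therefore 1 sample, and every difference below is a description of these libraries, with no test and no p-value.

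Pou5f1 is carried by the pluripotent epiblast and by germ cells, and is shut down as cells settle into most other fates. The hypoblast, or primitive endoderm, is the sister layer of the epiblast. Its cells carry the transcription factors Gata6, Gata4 and Sox17 and go on to line the yolk sac as visceral and parietal endoderm. Dppa3, also called Stella, is a chromatin-associated protein of naive pluripotent cells, germ cells and the oocyte that is known for its effect on DNA methylation.

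Pou5f1 was very unequal among the 3 cells. C40 had 4 Pou5f1 reads (18.05 CPM, exact 95% Poisson interval 4.92 to 46.2), C72 had 18 reads (64.5 CPM, 38.2 to 102) and C74 had 505 reads (1170 CPM, 1070 to 1276). C74 thus held 95.8% of all Pou5f1 reads in the cells. These intervals allow for counting error alone. No cell had Pou5f1 reads at a level under the threshold: the other 31 cells had 0 reads, as did the bulk library. In shallow libraries 1 read is worth more than 5 CPM, up to 36.7 CPM among the comparison cells (C30). There 0 reads cannot set a cell clearly below the level of C40. The 28 comparison cells had 7012562 reads between them, so that 0 reads allowed up to 0.428 CPM (3 reads over the group). That limit holds for the pooled reads and not for a single cell. When every cell was thinned to 27284 reads, the depth of the shallowest comparison cell, Pou5f1 kept 26 reads in C74 and none in C40 or C72. The assignment of C40 and C72 therefore rests on few reads. Pou5f1 has near-identical copies elsewhere in mammalian genomes, and how reads that fit several places were counted is not given in the sources used here.

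Dppa3 was highest in the same 3 cells. C40 had 149 CPM of Dppa3 (33 reads), C72 had 906 CPM (253 reads) and C74 had 1564 CPM (675 reads). Outside them, Dppa3 was seen in C54 (33.8 CPM), C24 (19.9 CPM) and C27 (6.68 CPM), and it had 0 reads in the other 25 comparison cells. All 3 Pou5f1-positive cells lay above the highest comparison cell. After thinning, Dppa3 kept 1, 22 and 43 reads in C40, C72 and C74. The bulk library had 2 reads. Dppa3 also has processed copies, so the same uncertainty applies to its reads.

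**Figure D1:**
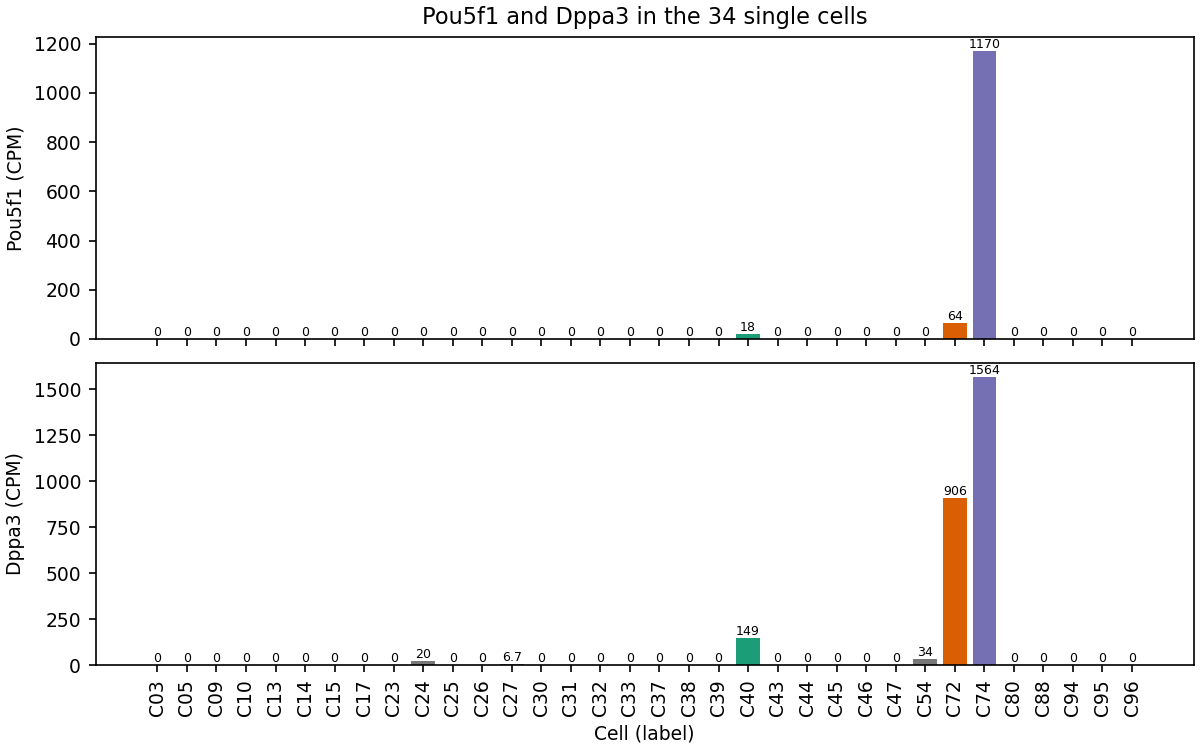
Pou5f1 (top) and Dppa3 (bottom) in CPM, on linear axes, in each of the 34 single cells, with 1 bar per cell and the value printed above it. C40, C72 and C74 are coloured, comparison cells are dark grey and the 3 cells left out are light grey. Pou5f1 stands at 0 in every cell but the coloured ones, while Dppa3 has low bars in C24, C27 and C54 as well.

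C74 differed from C40 and C72 in the make-up of its library. It held 431709 reads in only 1556 records, just above the minimum of 1500 and below every comparison cell (1642 to 5514 records, median 4390). C40 held 221646 reads in 4544 records and C72 held 279111 reads in 5100 records, both inside the range of the comparison cells (27284 to 503044 reads, median 296706). Reads per record came to 277 in C74, against at most 274 in a comparison cell (C95) and a median of 59.9. The part that these few records play in the levels of C74 was not tested, and a gene without a read there may have gone undetected. At 5 CPM or more, 25.4% of the 17201 records were detected in C40, 28.2% in C72 and 7.49% in C74. No doublet caller was run, so whether a chamber held more than a single cell was not tested.

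**Figure D2:**
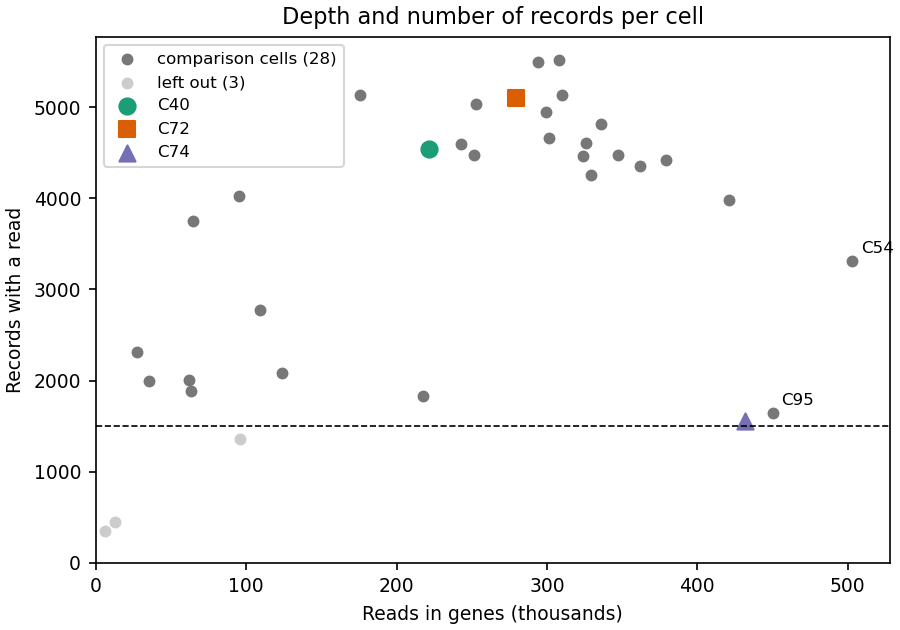
Number of records with a read against reads in genes for each single cell, on linear axes, with the minimum of 1500 records as a dashed line. C40 and C72 lie among the record-rich comparison cells, and C74 lies beside C95 at high depth and few records.

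Of the transcription factors around Pou5f1, few accompanied it in all 3 cells. The naive pluripotency list had 18 genes with a record, and 9 were detected at 5 CPM or more in C40, 10 in C72 and 5 in C74, against 2 to 6 (median 4) in a comparison cell. Pou5f1 is in this list through the choice of cells. Without it the counts were 8, 9 and 4 of 17, so that C40 and C72 lay above all comparison cells and C74 at their median. At 50 CPM the counts without Pou5f1 were 5, 7 and 3, against 1 to 4, and after thinning they were 7, 8 and 3, against 1 to 5. The summed level of these 17 genes was 1223 CPM in C40, 2325 in C72 and 3655 in C74, all below the highest comparison cell (C54, 3680). Detected in all 3 cells were Pou5f1, Dppa3, Klf4 and Tfcp2l1. Klf4, a zinc-finger factor of naive cells, had 72.2 CPM in C40 and 35.8 in C72, near and below the comparison median of 71.6 CPM. In C74 it reached 1624 CPM, above the highest comparison cell (C54, 408 CPM). Tfcp2l1, a naive pluripotency factor downstream of LIF, stood at 9.02, 193 and 461 CPM in C40, C72 and C74, and 6 comparison cells detected it, up to 543 CPM in C03.

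The other pluripotency genes divided the 3 cells. C72 alone of these 31 cells had reads of Gdf3, a TGF-beta family ligand of pluripotent cells (65 reads, 233 CPM), and of Tcl1a, an Akt coactivator (64 reads, 229 CPM). Tbx3, a T-box factor, had 208 CPM in C72 and none in C40 or C74, but 7 comparison cells detected it as well. C40 alone had Nr5a2, a nuclear receptor that can act on the Pou5f1 gene (11 reads, 49.6 CPM). Tdh, the threonine dehydrogenase of mouse embryonic stem cells, stood at 307 CPM in C40 and 0 in C72 and C74, with 8 comparison cells detecting it. Utf1, a chromatin-bound pluripotency protein, had 31.6 CPM in C40 and 0 in C72 and C74, and 6 comparison cells detected it.

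The partners of Oct4 were almost absent. Nanog had 2 reads in C72 (7.17 CPM) and none in C40 or C74, while 5 comparison cells detected it, up to 15.4 CPM in C17. Sox2 had 3 reads in C74 (6.95 CPM) and none in C40 or C72, and 1 comparison cell, C43, held 6.64 CPM. Klf5, a factor shared by pluripotent and endodermal cells, and Lin28a, an RNA-binding protein that blocks let-7 maturation, were present in C40 (316 and 289 CPM) and C72 (133 and 380 CPM) but had 0 reads in C74. Both were detected in most comparison cells, Klf5 in 26 and Lin28a in 24 of 28. Esrrb, Nr0b1, Gbx2 and Klf2 had no read in any of the 3 cells. Zfp42, Tdgf1 and Sall4 matched no record by symbol and were not analysed here.

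**Figure D3:**
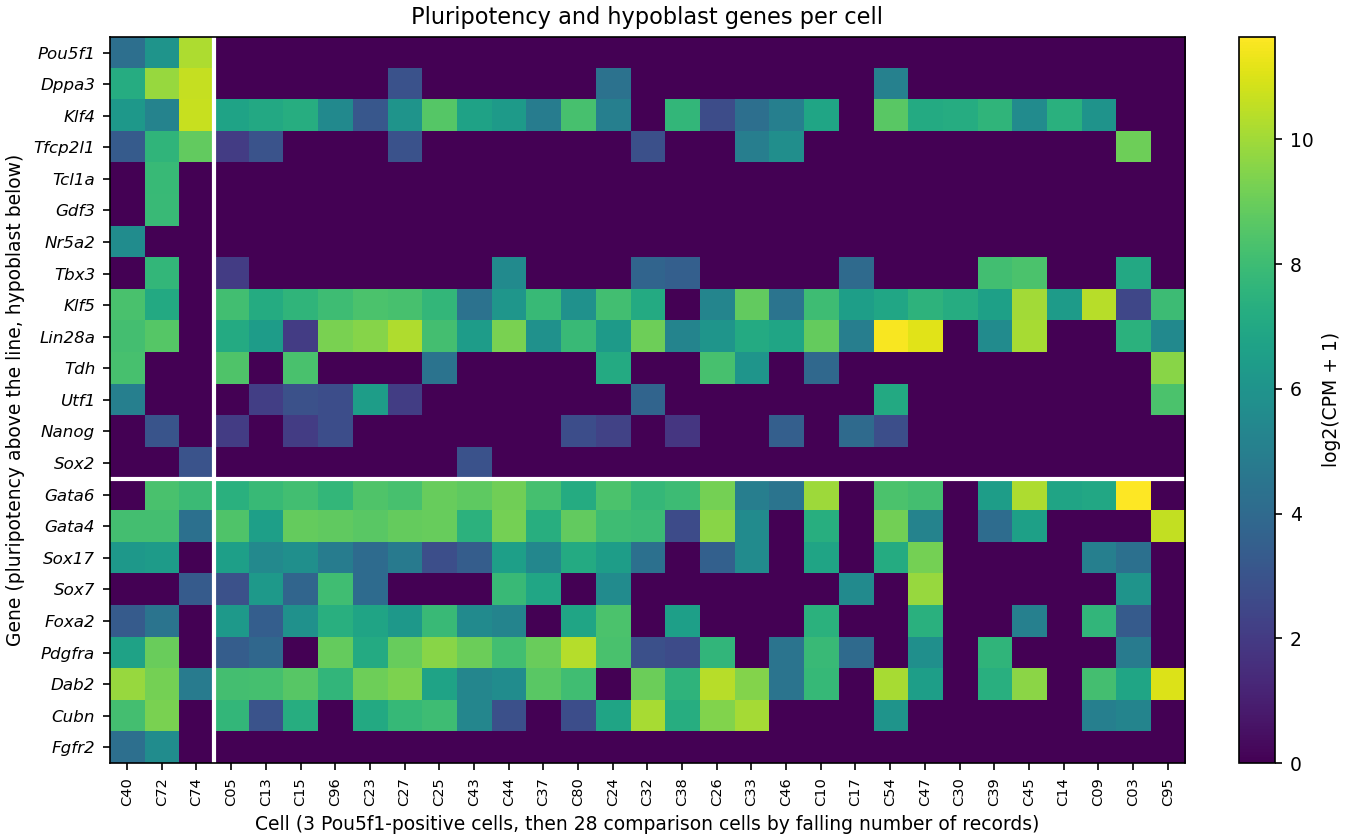
Level of pluripotency genes (above the white line) and hypoblast genes (below) as log2(CPM + 1), with 1 column per cell. C40, C72 and C74 stand left of the vertical line, and the 28 comparison cells follow by falling number of records. Pou5f1 is limited to the left columns, Gdf3 and Tcl1a to C72, and Fgfr2 to C40 and C72, whereas Klf4, Klf5 and Lin28a run through most columns.

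C40 and C72 held many of the hypoblast genes. Of 16 hypoblast genes, 11 were detected in C40, 11 in C72 and 4 in C74, against 1 to 11 (median 8) in a comparison cell. Gata4 had 289 CPM in C40, 287 in C72 and 18.5 in C74, with a comparison median of 168. Gata6 had 0 reads in C40 but 312 CPM in C72 and 246 in C74, and it was detected in 25 comparison cells (median 265 CPM). Sox17 had 72.2 and 82.4 CPM in C40 and C72 and no read in C74. Dab2, an endocytic adaptor of extraembryonic endoderm, had 911, 591 and 27.8 CPM in C40, C72 and C74, with a comparison median of 246. Other hypoblast factors were low or missing. Foxa2, a forkhead factor of endoderm, had 9.02 CPM in C40, 21.5 in C72 and 0 in C74, against a median of 34.6 and detection in 17 comparison cells. Sox7 had no read in C40 or C72 and 9.27 CPM in C74, and 11 comparison cells detected it. Hnf4a, Hhex and Cited1 had no read in the 3 cells. Pou5f1 reads and several hypoblast factors thus came from the same chamber in C40 and C72.

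Some surface receptors of the hypoblast were found in C40 and C72. Pdgfra, the PDGF receptor that marks primitive endoderm, had 104 CPM in C40, 498 in C72 and 0 in C74, where 20 of 28 comparison cells detected it. Cubn, an endocytic receptor of visceral endoderm, had 289, 623 and 0 CPM, and 17 comparison cells detected it. Fgfr2, an FGF receptor, had 4 reads in C40 and 14 in C72 and none in C74 or any comparison cell. Lrp2, another endocytic receptor, went the other way, with 27.1 CPM in C40 and no read in C72 or C74. Comparison cells had up to 1392 CPM of it (C45).

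The cathepsin and matrix products of the endoderm named here were mostly below the comparison median, but visceral endoderm genes were not in C40 and C72. Ctsl, a cathepsin that was found in every comparison cell (median 10150 CPM), had 5188 CPM in C40, 3128 in C72 and 13.9 in C74, the last below all 28. The laminin chain gene Lama1 had 1602, 1971 and 27.8 CPM against a median of 2894, and Lamc1 had 1408, 1372 and 9.27 against 2444. Sparc, a matrix glycoprotein, was an exception in C74 (3630 CPM, median 3506), with 1561 and 1408 CPM in C40 and C72. Summed over 13 parietal endoderm genes, C40 reached 7408 CPM, C72 4794 and C74 996, against a median of 14270 in the comparison cells (1115 to 53401). Such sums lean on the most abundant genes, here Ctsl. The 12 basement membrane genes summed to 7467, 8051 and 4725 CPM in C40, C72 and C74 (median 12316). By the 4-fold rule given below, 1, 2 and 1 of them were higher and 1, 0 and 7 lower. The sum of 20 visceral endoderm genes was above its median of 1319 CPM in C40 (1417) and C72 (3289), but not in C74 (78.8).

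Of the genes of other cell types, those of fibroblasts, mesoderm and blood were nearly absent, as they were in the median comparison cell. Of 13 fibroblast genes only Acta2 was detected, at 149, 60.9 and 111 CPM in C40, C72 and C74, and Col1a1, Col1a2, Col3a1 and Thy1 had 0 reads in all 3. A comparison cell detected 1 to 10 fibroblast genes (median 1), and the fibroblast sum ran from 16.2 to 17264 CPM there (median 95.8). All 11 genes of primitive streak, mesoderm and definitive endoderm and all 8 blood genes had 0 reads in the 3 cells. A comparison cell detected 0 to 1 gene of either list (median 0). Of 14 germ cell genes, 2 were found in all 3 cells, Dppa3 and the X-linked homeobox gene Rhox5, whose comparison median was 207 CPM. C72 detected 5 germ cell genes, more than any comparison cell (0 to 4), among them Tex19.1 (172 CPM) and the Piwi gene Piwil2 (129 CPM), both at 0 in C40 and C74. Tex19.1 was detected in 3 comparison cells and Piwil2 in 8. The germ cell sum was 379 CPM in C40, 1437 in C72 and 3088 in C74, against at most 1226 in a comparison cell, and Dppa3 is part of it. Prdm1, Nanos3, Dazl, Kit, Dnd1, Sycp3 and Dmrt1 had no read in the 3 cells. The postimplantation epiblast list, which includes Dnmt3a, summed to 1160, 874 and 1744 CPM, with a comparison maximum of 1613 (C30). Among trophoblast genes, Plac1, a placenta-enriched X-linked gene, had 839 CPM in C40 and 430 in C72 against at most 454 (C44), while Cdx2, Elf5 and Gata3 were at 0.

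Across all genes, a level was called higher or lower in a cell at a 4-fold or larger ratio of CPM + 10 to the comparison mean + 10. The ratios were taken over 6401 records whose levels in the 3 cells and in the comparison cells averaged at least 10 CPM. By this rule 533 genes (8.33%) were higher and 1640 (25.6%) lower in C40. In C72, 466 (7.28%) were higher and 1368 (21.4%) lower, and in C74, 381 (5.95%) were higher and 3609 (56.4%) lower. Many genes differ this much in any cell: over the 10677 records with a read, where no mean minimum favours the 3 cells, 548, 497 and 384 genes were higher in C40, C72 and C74. A comparison cell set beside the mean of the others had 243 to 587 (median 472). Lower genes numbered 3182 to 3651 in the 6 comparison cells with fewest records, so the count of C74 lay in the range of libraries of that kind.

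The genes shared by the 3 cells were few. Only 6 (0.0937%) were higher in all 3: Dppa3, Dnmt3a, Exo1, Dnaja3, Rbm18 and Sdc4. Over all 10677 records with a read, 7 genes (0.0656%) exceeded every comparison cell in all 3: Pou5f1, Dppa3, Exo1, Sdc4, Alkbh2, Prkd2 and Fermt1. Pou5f1 is among them through the choice of the cells, and Prkd2 and Fermt1 had only 1 to 3 reads per cell. Pou5f1 itself missed the 4-fold rule because the 10 CPM added to both levels outweighs 18.05 CPM in C40 (log2 ratio 1.49).

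Dnmt3a, a de novo DNA methyltransferase, had 90.2 CPM in C40, 874 in C72 and 1570 in C74. It was detected in 5 comparison cells, up to 176 CPM in C32, which lay above C40. Its partner Dnmt3l, a catalytically inactive cofactor, had 388, 1773 and 2694 CPM in C40, C72 and C74. C72 and C74 exceeded the highest comparison cell for Dnmt3l (C39, 1426 CPM) and C40 was below 3 comparison cells (median 25.4 CPM). Trim28, a corepressor that silences retroelements, had 577, 322 and 899 CPM, above the comparison median of 135 but inside its range. The maintenance methyltransferase gene Dnmt1 had 153, 28.7 and 0 CPM in C40, C72 and C74. All 8 measured genes of DNA methylation and silencing were detected in C72, 7 in C40 and 3 in C74 (Dnmt3a, Dnmt3l and Trim28). A comparison cell detected 0 to 7 of them (median 5), and 21 comparison cells detected more than C74. Dnmt3b, Tet1, Tet2, Tet3, Uhrf1 and Suz12 of that list matched no record by symbol. Their summed level was 1430, 3246 and 5168 CPM in C40, C72 and C74, and the highest comparison cell reached 2314. In C74 this sum came almost wholly from Dnmt3a, Dnmt3l and Trim28. Of the 8 genes, 5 were at least 4-fold lower in C74, as were 33.8% of all records with a read. The sum is thus no sign of a rise across the list, and Dnmt3a was itself picked as high in these cells.

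Sdc4, syndecan-4, a heparan sulfate proteoglycan of the cell surface, was the most even of these 6 genes. It had 1263 CPM in C40, 1379 in C72 and 1167 in C74, against a comparison median of 186 and a maximum of 956 (C25). After thinning it still had 33, 34 and 30 reads. Its lowest log2 ratio, 2.05, was just past the threshold of 2. It passed on thinned counts (2.04), where the other 5 did not, but fell short with TMM scaling (1.74), against comparison cells with at least 4000 records (1.47), without C54 (1.998) and with a pseudocount of 50 CPM (1.91).

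The other shared genes were led by C74. Exo1, an exonuclease of DNA mismatch repair, had 90.2, 136 and 2163 CPM in C40, C72 and C74, and C13 was the highest comparison cell with 85.1. Dnaja3, a mitochondrial co-chaperone, had 135, 143 and 2258 CPM, where C80 held 184. Rbm18, an RNA-binding protein, had 361, 287 and 1617 CPM, where C24 held 494. Alkbh2, which repairs alkylated DNA, had 54.1, 35.8 and 417 CPM against at most 15.9 in C24. In C40 and C72 the levels of Exo1, Dnaja3 and Rbm18 lay near or inside the upper end of the comparison cells, and only C74 stood far above. Hprt1, a purine salvage enzyme used as a housekeeping gene, was above the comparison median in all 3 (1218, 810 and 1543 CPM, median 63.7, highest 1100 in C30). It missed the 4-fold rule (lowest log2 ratio 1.52). C72 was below C30, C26 (912 CPM), C10 (860), C14 (841) and C38 (823).

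Of the 3 comparison cells with Dppa3 reads, C24 had all 6 shared genes at low to moderate levels. Beside 19.9 CPM of Dppa3 it held 55.7 CPM of Dnmt3a, 7.96 of Exo1, 15.9 of Dnaja3, 494 of Rbm18 and 398 of Sdc4, and 15.9 of Alkbh2. Its Rbm18 level was above C40 and C72, and its other levels were below all 3 Pou5f1-positive cells. C54 had 31.8 CPM of Dnmt3a, 292 of Dnmt3l and 408 of Klf4 but no read of Exo1, Dnaja3, Rbm18 or Sdc4. C27 had no read of Dnmt3a or Exo1, with 401 CPM of Sdc4.

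**Figure D4:**
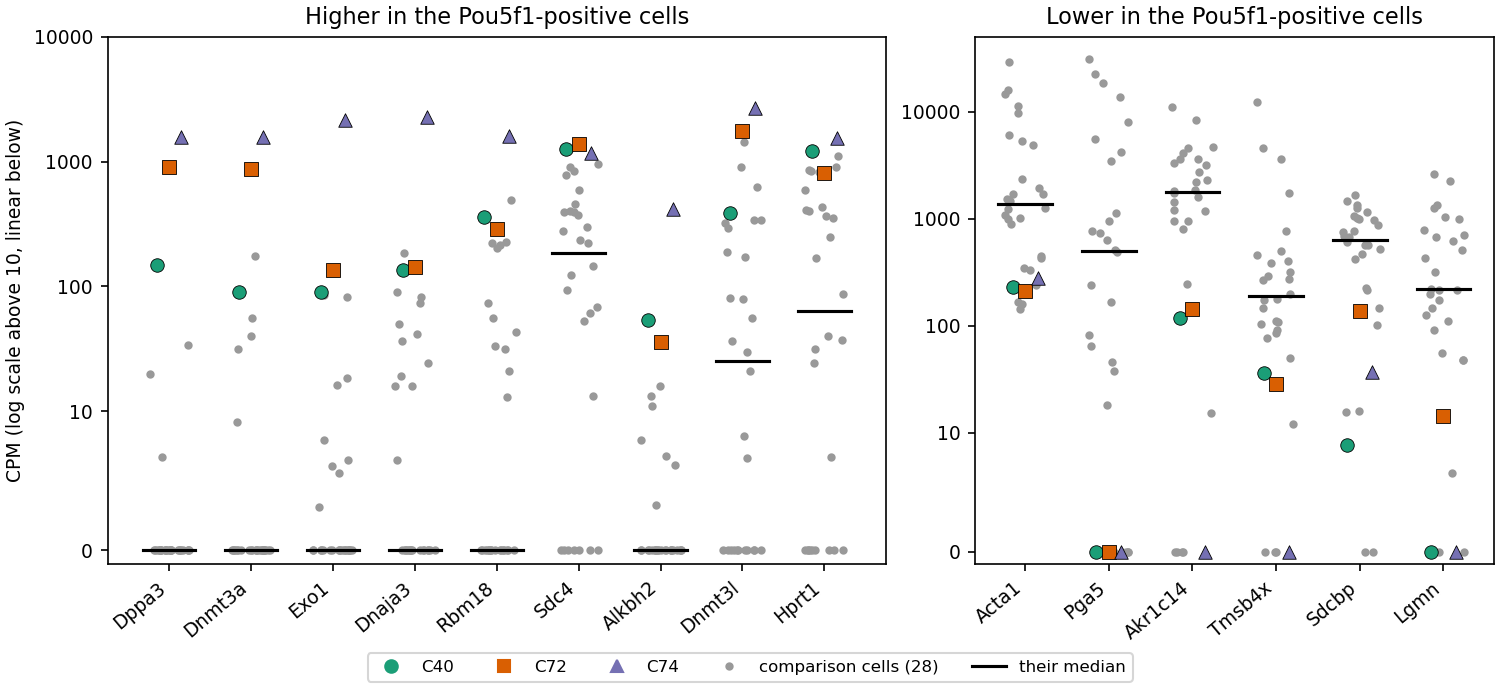
CPM of 9 genes that were high (left) and 6 that were low (right) in the Pou5f1-positive cells, with 1 grey point per comparison cell and a black bar at their median; the axes are logarithmic above 10 CPM and linear below. The coloured symbols of Sdc4 lie together above all grey points, whereas those of Dppa3, Dnmt3a and Exo1 spread over more than a factor of 10.

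Low levels were shared by more genes, 712 (11.1%), but 531 of these had 0 reads in all 3 cells. No gene was below every comparison cell in all 3 (0.0%). Acta1, the skeletal muscle actin gene, had reads in all 31 cells compared, with 230, 211 and 280 CPM in C40, C72 and C74 against a median of 1366 (lowest 143). Actin genes are near-identical in their coding sequence, so reads can be shared among them. Akr1c14, a hydroxysteroid dehydrogenase, had 117, 143 and 0 CPM against a median of 1769. Sdcbp, or syntenin, an adaptor that binds the tail of syndecans, had 9.02, 136 and 37.1 CPM against a median of 639. Tmsb4x, which encodes the actin-binding peptide thymosin beta 4, had 36.1, 28.7 and 0 CPM against 189.

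Pga5, a pepsinogen gene, had 0 reads in C40, C72 and C74, while 22 comparison cells detected it, at a median of 503 CPM and up to 31274 in C26. The lysosomal protease gene Lgmn had 0, 14.3 and 0 CPM against a median of 218. Another 10 genes had no read in the 3 cells and at least 5 CPM in 21 or more comparison cells, among them Lipg, endothelial lipase (median 259 CPM), and Ldhb, a lactate dehydrogenase subunit (164 CPM). Several other means came from 1 cell: Pla2r1 and Lpar3 were at 0 in the median comparison cell, and their highest level was in C03. Against the comparison median in place of the mean, 47 genes were lower in all 3 cells and 63 higher.

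Pairs of the 3 cells shared somewhat more. With at least 10 reads in both cells, 30 genes (0.469%) exceeded every comparison cell in C40 and C72, 22 (0.344%) in C40 and C74, and 22 (0.344%) in C72 and C74. For a cell alone, 331 genes (5.17%) did so in C40, 256 (4.0%) in C72 and 352 (5.5%) in C74. Over all records with a read the counts per cell alone were 341, 284 and 359, inside the range of the comparison cells, each of which exceeded every other in 101 to 430 genes (median 298). C40 and C72 shared Colec12, a scavenger receptor (126 and 835 CPM, comparison maximum 73.3), and Smarcad1, a chromatin remodeller (244 and 201 CPM, maximum 119), both at 0 in C74. C72 and C74 shared Trim2, a ubiquitin ligase, which had 1032 and 1814 CPM against at most 93.5 and none in C40. They also shared Akr1b8, an aldo-keto reductase with close paralogs (1197 and 1689 CPM, 9.02 in C40, maximum 361). C40 and C74 shared Decr1, a mitochondrial enzyme of fatty acid oxidation (302 and 642 CPM, 21.5 in C72, maximum 100.1), and Snupn, the snurportin gene (442 and 510 CPM, 0 in C72, maximum 413).

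Each of the 3 cells had leading genes of its own, as each comparison cell did. In C72 these included Pgc, which encodes pepsinogen C (1372 CPM), the growth factor gene Igf2 (236 CPM) and Pramel6, a gene of embryonic stem cells (287 CPM), all without a read in any other of the 31 cells. C72 also had the receptor genes Lifr (416 CPM, comparison maximum 259) and Fgfr3 (494 CPM, maximum 280), and 2 feedback inhibitors, Socs3 of LIF signalling (168 CPM, maximum 97.1) and Spry4 of FGF signalling (183 CPM, maximum 41.9). The summed levels of the LIF list (1447 CPM) and of the PDGF, EGF and FGF list (1483 CPM) in C72 were above every comparison cell, whose maxima were 1281 and 1440. C40 had 356 and 149 CPM for these lists, and C74 had 0 and 208. In C72 the median log2 ratio was -0.310 over the 10 LIF genes and -0.0169 over the 16 others. In each list 3 genes were at least 4-fold higher in C72, with 1 and 2 lower. Over all records with a read, 4.65% were higher and 12.8% lower there. The sums are thus no sign of a rise across either list. Pim1, Pim3, Egfr, Dusp6, Dusp4 and Etv4 were among the members without a read in the 3 cells.

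In C74 the highest ratios belonged to Cpxm1, a carboxypeptidase-like gene (3479 CPM), and Sox8, a SoxE transcription factor (3164 CPM), neither with a read in another of the 31 cells. Daxx, a histone H3.3 chaperone, had 3257 CPM in C74 (comparison maximum 184), Dbr1, the enzyme that opens intron lariats, had 2613 (maximum 148) and Serpinb9, a granzyme B inhibitor, had 2949 (maximum 292). Rhox5 reached 1501 CPM in C74 (maximum 613), with 203 and 208 CPM in C40 and C72. C40 was led by Natd1 (952 CPM, maximum 82.0), with Marf1, a regulator of meiosis and RNA stability (1760 CPM, maximum 800.5), and Sp100, a nuclear body protein (817 CPM, maximum 159). Cldn6, a claudin of early epithelia, had 1060 CPM in C40, 0 in C72 and 44.01 in C74 (maximum 780).

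The cell cycle lists of the 3 cells lay within the range of the comparison cells. Of 19 S phase genes, 15 were detected in C40, 16 in C72 and 8 in C74, against 1 to 18 (median 11). Rrm2, a ribonucleotide reductase subunit, had 2545, 3705 and 2858 CPM in C40, C72 and C74 (comparison median 876, highest 5649). Mcm7, a replicative helicase subunit, had 289, 1272 and 813 CPM, with C72 above the highest comparison cell (1016). Of 17 G2/M genes, 9, 14 and 2 were detected, against 0 to 17. Ube2c, a ubiquitin-conjugating enzyme of mitosis, stood at 820 CPM in C74 (maximum 482) and at 0 in C40 and C72.

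**Figure D5:**
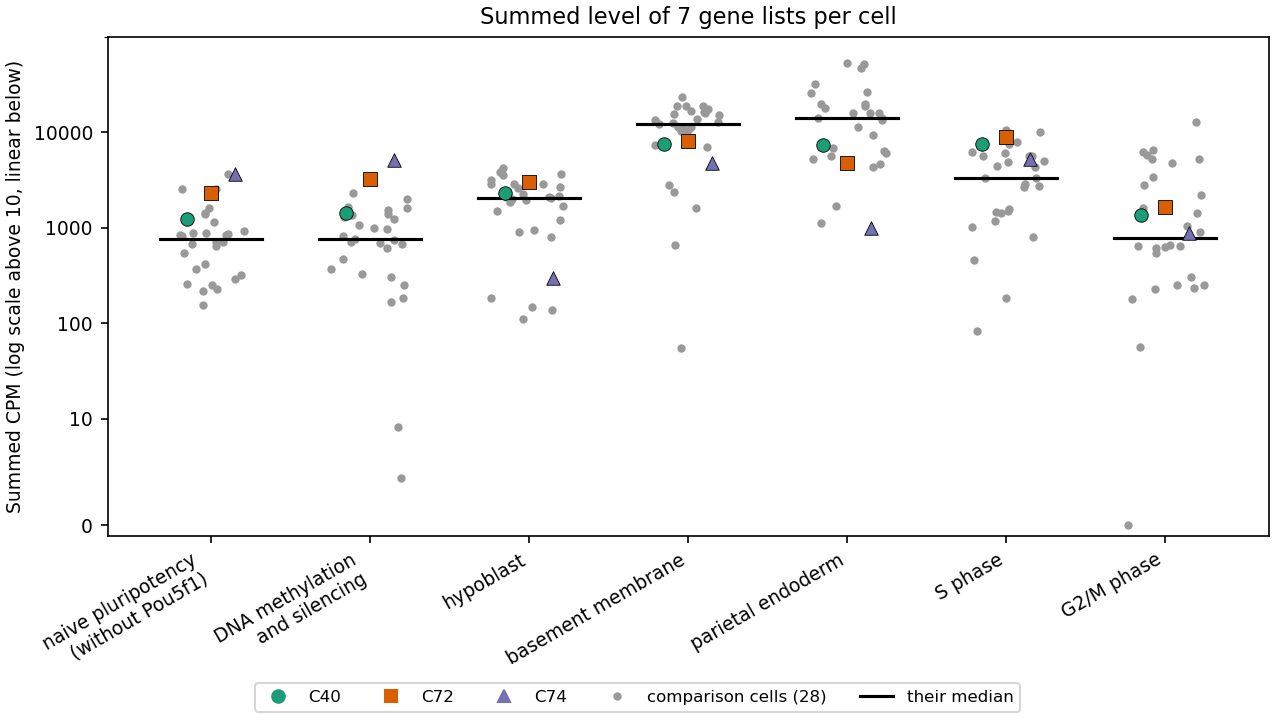
Summed CPM of 7 gene lists in each cell, logarithmic above 10 CPM and linear below, with grey points for the 28 comparison cells and a black bar at their median. For DNA methylation and silencing, C72 and C74 lie above all comparison cells, though C74 detected only 3 of the 8 genes. For parietal endoderm, C74 lies below all comparison cells and C40 and C72 lie under their median.

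By their whole profiles, none of the 3 cells had another of them as its nearest neighbour. Spearman's rho across the 6401 records, given as a description since genes are not independent replicates, was 0.401 between C40 and C72, 0.297 between C40 and C74 and 0.282 between C72 and C74. The 378 pairs of comparison cells ran from 0.191 to 0.531 (median 0.320). C40 and C72 were each nearest to the comparison cell C23 (0.452 and 0.468), with the other Pou5f1-positive cell of the pair 8th by likeness among 30. C74 was nearest to C54 (0.322), followed by C40. With the mean of the comparison cells, rho was 0.458 for C40, 0.469 for C72 and 0.297 for C74. Comparison cells reached 0.325 to 0.604 with the mean of the others, so C40 and C72 lay within that range and C74 below it. The cells share library chemistry but differ in depth and in the number of records, C74 having the fewest of the 31.

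Most of what the 3 cells had in common was shared with the culture as a whole. In all, 915 records were detected at 5 CPM or more in C40, C72 and C74, and 837 of them were also detected in at least 14 comparison cells. The 6 that were found in at most 3 comparison cells included Pou5f1, Dppa3, Fermt1 and Fbxo44, a ubiquitin ligase subunit (13.5, 57.3 and 11.6 CPM in C40, C72 and C74).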

How the data were processed

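The authors deposited whole-number read counts per transcript record, in columns named for the cells. The submitters' processing notes list TopHat2 and the build rn5. Which program counted the reads, on which annotation, and how reads with several matches were treated is not given in the sources used. The labels name no molecular identifiers. In the 31 cells compared, 59.8% to 72.6% of counts above 0 were even, an excess that independent reads would not give, so counting intervals are too narrow. Of 17201 records, 16215 were matched to a symbol in a RefSeq table. All 35 columns matched a label, with 0 left over.

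Counts were scaled to CPM by column totals, which ran from 27284 to 503044 reads in the cells compared. Ratios used a pseudocount of 10 CPM, a mean minimum of 10 CPM and a threshold of 2 on the log2 scale. Detection meant 5 CPM. The comparison level was the mean of the 28 comparison cells, which 1 cell can dominate. The labels separate no cultures, so each set counts as 1 sample and no test was run. Alternatives included TMM factors (edgeR 4.0.16), pseudocounts of 1 and 50, thinning to 27284 reads, the comparison median, and leaving out each cell. The code was tested on simulated data.

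The named genes were 30 key lineage genes, the 4 highest members of each of 22 lists, the shared higher and lower genes (15 each at most), the 12 leading genes of each cell and the 5 of each pair. Others, such as list members at 0, Hprt1 and the genes above every comparison cell, were chosen after their values were seen. The members and lists were chosen with earlier results of these data known. Python 3.11.15 and R 4.3.3 were used.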

Additional observations from a re-analysis of the deposited data

Results flagged for a closer look

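The bulk population library, which entered no comparison, had more than 3 reads of 4 of the 6 genes that were higher in all 3 Pou5f1-positive cells: 4 reads of Dnaja3, 4 of Exo1, 6 of Rbm18 and 10 of Sdc4. The cut of 3 reads is the limit used above for a count of 0, and fewer reads are not an absence. The library held 47121 reads. Of the 28 comparison cells, 12 detected Dnaja3, 8 Exo1, 12 Rbm18 and 21 Sdc4, so these transcripts were not limited to the Pou5f1-positive cells. In the bulk library Dnmt3a had 0 reads and Dppa3 had 2.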

How the results depend on the processing

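The count of genes higher in all 3 cells was 6. It became 12 with a pseudocount of 1 CPM, 0 with 50 CPM, 63 against the comparison median, and 29 to 61 when 1 of the 3 cells was left out, with the most without C74. Genes lower in all 3 numbered 712. That count became 1180 (pseudocount of 1), 74 (pseudocount of 50), 1070 (thinned), 47 (comparison median) and 760 to 1477 with 1 cell left out. Genes higher in C40 went from 533 to 171 (pseudocount of 50) and 1497 (comparison median), and in C72 from 466 to 114 and 1672. Without a mean minimum, rho with the comparison mean was 0.621 for C40 and 0.632 for C72. At 50 CPM, 5 pluripotency genes were detected in C40, 1 hypoblast gene in C74 and 5 DNA methylation genes in C72, and the last was 4 after thinning. The causes were not tested. These are the 22 alternative values that moved, and another 88 stayed close. Of the lowest log2 ratios of single genes, 12 alternatives were counted as moved and 68 were not. Among the moved, thinning lowered Dppa3 from 3.71 to 1.61 and Rbm18 from 2.12 to 0.358, and a pseudocount of 50 lowered Dppa3 to 1.93. Some of the 68 also fell under the threshold of 2. Thinning lowered Dnmt3a from 2.242 to 1.099, Dnaja3 from 2.143 to 1.491 and Exo1 from 2.455 to 1.935. A pseudocount of 50 lowered Dnmt3a to 1.197 and Exo1 to 1.267. Thinned counts gave 5 shared higher genes, of which 1, Sdc4, was among the 6. With TMM factors 5 of the 6 remained, with 7 in all, and Sdc4 was not among them. The alternatives added after seeing the data were comparison cells with at least 4000 records (5 higher, 3 of them among the 6), no C54 (7 higher, 5 among the 6) and totals without Rn45s (6 higher, the same genes). No paired analysis was possible because the cells carry no shared replicate numbers. In C40, 1 read was worth 4.51 CPM, against 3.58 in C72 and 2.32 in C74. Depth did not rank detection among the 3 cells, since C74 had the most reads but the fewest records with a read (1556).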

Other observations

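All 16 mitochondrial oxidative phosphorylation genes were detected in C40 and C72 and 6 in C74, below every comparison cell (7 to 16). In C74, 11 of the 16 were at least 4-fold lower, as were 33.8% of all records with a read and 56.4% of the 6401 records kept for the ratios. The summed level of the 16 genes in C74 was 3961 CPM, below 22 of the 28 comparison cells (1017 to 14394, median 5955). Of 15 glycolysis genes, 11, 12 and 9 were detected in C40, C72 and C74, and the sums of 9001, 10727 and 9930 CPM lay above the comparison median of 7578. Ldha, a lactate dehydrogenase subunit, had 2369, 1003 and 2833 CPM, while Ldhb had no read in the 3 cells. Apoe, the only visceral endoderm gene found in all 3, had 704, 2651 and 78.8 CPM against a median of 928. The epithelial keratin genes Krt8 and Krt18 were low in C40 and C72: Krt18 had 40.6, 17.9 and 248 CPM in C40, C72 and C74 against a median of 325, and Krt8 had 0, 78.8 and 0 against 145. The part that the few records of C74 play in these values was not tested.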
